A study of Mus musculus with 6 samples.

Results

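The genes described here are 9 receptors and cyclic AMP signalling genes that set the rate of lipolysis in fat, the beta-adrenergic receptor genes Adrb1 and Adrb3, the anti-lipolytic receptor genes Niacr1 and Adora1, the natriuretic peptide receptor genes Npr1 and Npr3, the adenylyl cyclase genes Adcy3 and Adcy6 and the protein kinase A subunit gene Prkar2b. They were chosen by symbol, and all 9 had a row among the 13490 genes of the series. RNA was sequenced from inguinal white adipose tissue, a subcutaneous depot, of male C57BL/6J mice, wild type and 15 weeks old. The 3 arsenite mice had been given drinking water with 300 ppb sodium arsenite for 9 weeks, and the 3 water mice had been given dH2O for the same 9 weeks. The series title names impaired adaptive thermogenesis, and the comparison asked how these transcripts differed between arsenite and water mice. The values are the authors' means per group, so no spread between mice can be given. PPEE is the name EBSeq gives to a gene's posterior probability of equal expression in both groups, and genes with PPEE up to 0.05 count as called.

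Lipolysis, the release of fatty acids and glycerol from stored triglyceride, is switched on in adipocytes when noradrenaline binds beta-adrenergic receptors. These couple through the stimulatory G protein to adenylyl cyclases, and the cyclic AMP they make frees the catalytic subunits of protein kinase A, which phosphorylates the lipid droplet coat protein perilipin and hormone-sensitive lipase. The receptor for nicotinic acid and the A1 receptor for adenosine couple to the inhibitory G protein and restrain the cyclases, while natriuretic peptides act through cyclic GMP.

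Cyclic AMP also acts on transcription through CREB, a factor that binds the cAMP response element TGACGTCA or its core TGACG. The RefSeq promoter table (GRCm38.p6) gave sequence for 6 of the 9 genes, in 9 windows of 250 bases before a start site; Niacr1, Adrb3 and Adcy6 had no entry. The full element was in 0 of the 9 windows on either strand, against 1.55% of all 32851 promoter windows of that length. The core, which is contained in the full element, was in 2 windows, those of Adrb1 and Npr3, against 17.8% of all windows. These windows are shown because they hold the only core letters found, in capitals, in genes on opposite sides of 0. That of Adrb1 lies at chr19:56721867-56722116 on the plus strand and that of Npr3 at chr15:11907372-11907621 on the minus strand.
Adrb1: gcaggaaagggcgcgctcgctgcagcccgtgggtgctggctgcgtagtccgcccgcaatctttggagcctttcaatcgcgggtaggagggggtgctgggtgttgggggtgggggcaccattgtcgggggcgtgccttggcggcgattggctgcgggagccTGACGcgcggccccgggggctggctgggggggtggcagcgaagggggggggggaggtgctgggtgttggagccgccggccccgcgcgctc
Npr3: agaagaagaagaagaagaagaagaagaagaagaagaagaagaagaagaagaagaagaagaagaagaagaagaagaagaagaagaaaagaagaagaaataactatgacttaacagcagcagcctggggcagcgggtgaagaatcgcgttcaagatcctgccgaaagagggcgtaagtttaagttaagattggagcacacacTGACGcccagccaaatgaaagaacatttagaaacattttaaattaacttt
The Adrb1 window is 74.0% G or C and its core begins 90 bases before the start site. The Npr3 window is 38.8% G or C, opens with a run of repeated aga triplets, and its core begins 50 bases before the start. The Npr3 window lies inside the span of Npr3, before a start site within the gene, and overlaps an exon of the long noncoding RNA gene Gm5144. The windows of Adcy3 and Prkar2b and a window of Adora1 overlap annotated exons of their own genes. Not every window is therefore sequence upstream of its gene. Of other promoter motifs searched on both strands, the GC box GGGCGG was in 5 of the 9 windows (32.7% of all windows), CCAAT in 4 (33.8%), the E-box CACGTG in 1 (6.02%) and TATAAA in 0 (12.4%). A match of letters is a description and shows no binding.

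Under arsenite the anti-lipolytic receptor gene Niacr1 was higher and was the single member called, while the cyclase gene Adcy3 had the largest difference of the 9 but was not called. In all, 1 of 9 members was called, against 0.734% of all genes, 99 of 13490. That call was upward, against 0.385% of all genes, and 0 members were called downward, against 0.348%. The same member alone passed a PPEE bound of 0.01, which 0.467% of all genes passed, and a bound of 0.1, which 0.882% passed. The 2 anti-lipolytic genes both had log2 ratios above 0, with a median of 0.51. Of the 7 pro-lipolytic genes 4 lay above 0 and 3 below, and their median was 0.10, with a range of 0.06 to 0.26 over other scalings and the length correction. Over all 13490 genes 45.5% lay above 0 and the median was -0.03. Members are not replicates, and 2 genes make a small class, so no test was made between the classes. Without Npr3, which clears its ligands, and Prkar2b, which holds the kinase inactive, the pro-lipolytic median was the same 0.10 over 5 genes. It could not have changed, since Npr3 lies above that median and Prkar2b below it, so the weight of these genes in their class is not shown.

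**Figure D1:**
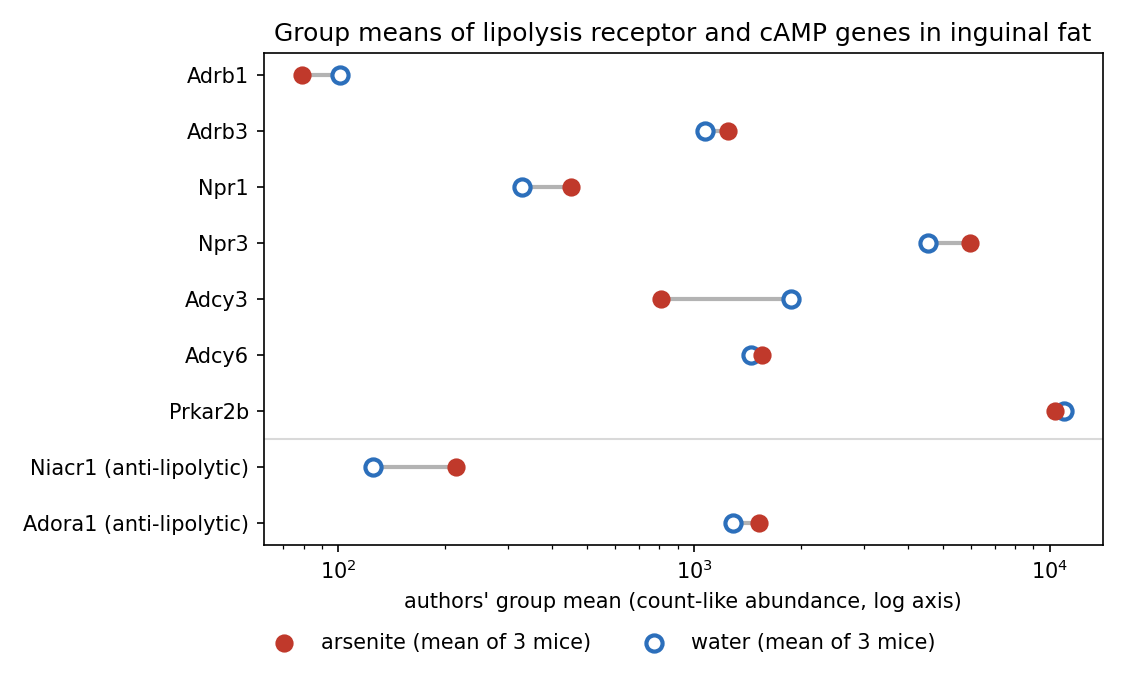
Authors' group means of the 9 genes (log axis, count-like abundance), filled points for arsenite and open points for water, each the mean of 3 mice. The widest gaps are those of Adcy3 (806 under arsenite, 1869 under water) and Niacr1 (214 under arsenite, 125 under water).

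Niacr1, listed in RefSeq as Hcar2, encodes the inhibitory receptor for nicotinic acid and the ketone body beta-hydroxybutyrate, found in adipocytes and in some immune cells. It spans 123863570 to 123865516 on chromosome 5 of GRCm38. Its mean rose to 214 in arsenite mice, against 125 in water mice, 1.71-fold higher, and the authors' deposited table put its log2 ratio at 0.77 with PPEE 3.8e-07. Only 7 of the 13490 genes had a smaller PPEE. For comparison, 4827 genes, Niacr1 included, had an average mean within 2-fold of that of Niacr1. Of these, 155 had an absolute log2 ratio at least as large, and 8 of those were called, Niacr1 being 1 of them. Niacr1 shared no exon base with another GENCODE gene, and 0% of its 50-base stretches occurred in transcripts of other genes. The log2 ratio of Niacr1 ran from 0.75 to 0.93 over the alternative scalings, added constants and length correction. Macrophages can express this receptor, and of 9 macrophage markers 2 lay above 0, with a summed level, as mean abundance per kilobase of gene length, of 3454 under arsenite and 3978 under water. Of 12 adipocyte markers 7 lay above 0, and all 12 summed to 465403 under arsenite and 467424 under water on the same scale. Fabp4 alone made up 72.7% of that sum under arsenite and 73.9% under water. Their extremes were Lep (log2 ratio 0.40) and Slc2a4 (-0.45), and those of the macrophage list Csf1r (0.09) and Emr1 (-0.31), by the authors' deposited table. All markers of both lists had means above 0 in both groups, and their part in the Niacr1 result was not tested. In a bulk tissue, fewer cells of a type and less RNA per cell cannot be told apart.

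The adenosine receptor gene Adora1 encodes the A1 receptor, through which adenosine released in fat restrains cyclic AMP. It spans 134199215 to 134235457 on chromosome 1. Its mean was 1522 in arsenite mice and 1287 in water mice, and the authors' deposited table put its log2 ratio at 0.24 with PPEE 0.981. It was not called. Mybph, a muscle myosin-binding protein gene on the opposite strand, overlaps 20.1% of the Adora1 exon bases in GENCODE M21. The shared bases make up 49.9% of the Mybph exon bases, so the Mybph values carry the same uncertainty. Mybph had means of 295 under arsenite and 200 under water, and the authors' deposited table put its log2 ratio at 0.56. No source used here gives the strand setting of the libraries, so reads from the overlap cannot be assigned and the Adora1 value is uncertain to that extent.

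The list of inhibitory receptors, which contains these 2 genes, gives their setting. Of 14 listed receptors of this kind, Niacr1 and Adora1 included, 8 were measured, 6 above 0 and 2 below. They had a median of 0.46 and 1 call, Niacr1. Ffar2, a receptor for short-chain fatty acids, had means of 564 under arsenite and 341 under water (log2 ratio 0.72 at PPEE 0.929, from the authors' deposited table). Sucnr1, the succinate receptor, had 541 under arsenite and 337 under water, and the authors' deposited table put its log2 ratio at 0.68. Gpr81, the lactate receptor, had 409.6 under arsenite and 256 under water (log2 ratio 0.67 at PPEE 0.848, from the authors' deposited table); it was named after its values were seen. Ptger3, a prostaglandin E receptor, went the other way with 348 under arsenite and 447 under water (log2 ratio -0.36, from the authors' deposited table). None of these 4 was called. Levels of different genes are compared per kilobase of gene length: by that measure Sucnr1 was highest of the 8 under arsenite (345) and Adora1 under water (247).

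**Figure D2:**
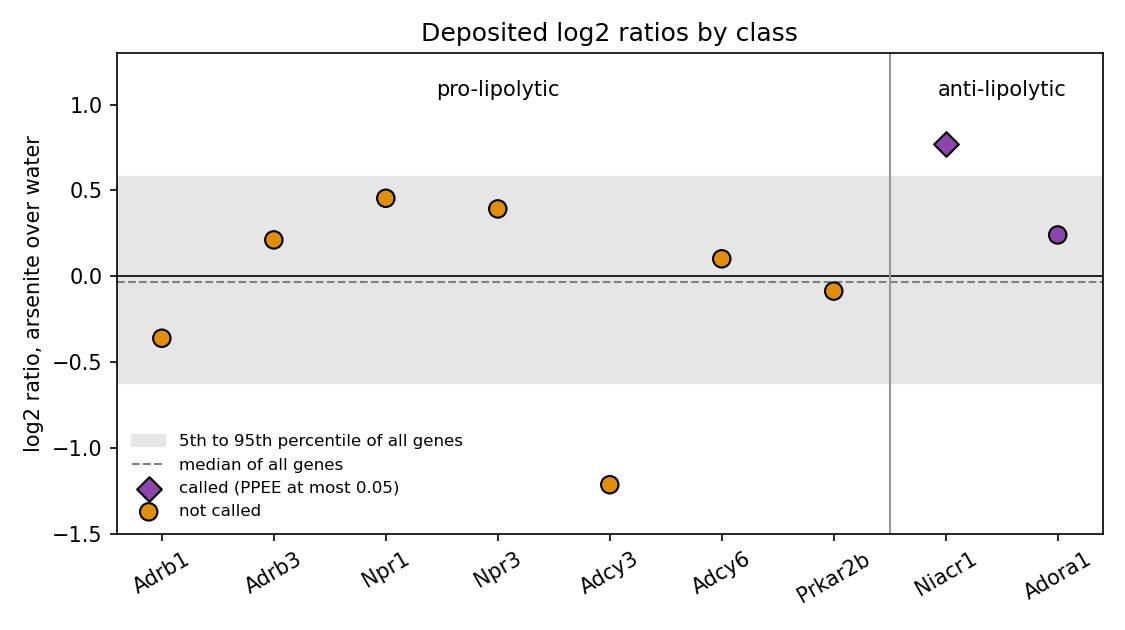
Deposited log2 ratios, arsenite over water, of the 7 pro-lipolytic genes and the 2 anti-lipolytic genes, with the 5th to 95th percentile of all genes as a grey band (-0.62 to 0.58). Niacr1, the called gene (diamond), lies above the band and Adcy3 below it, and the other 7 lie inside.

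Of the stimulatory receptors, Adrb1 was the lower one and Adrb3 the higher one under arsenite, and neither was called. Adrb3 encodes the beta3 receptor, the main catecholamine receptor of rodent adipocytes (chromosome 8, 27225776 to 27230845). It had means of 1244 in arsenite mice and 1074 in water mice, and the authors' deposited table put its log2 ratio at 0.21 with PPEE 0.998. Adrb1 encodes the beta1 receptor, which is also present in heart and in brown fat precursors (chromosome 19, 56722117 to 56725150). It had means of 79.0 in arsenite mice and 101.6 in water mice, and the authors' deposited table put its log2 ratio at -0.36 with PPEE 0.993. Adrb1 had the lowest level per kilobase of the 9 in both groups, 31.7 under arsenite and 40.8 under water. Adrb3 had 445 under arsenite and 384 under water on the same scale, so the level of Adrb3 over that of Adrb1 was 14.04 under arsenite and 9.42 under water. Among the 3 beta-adrenergic receptors, Adrb3 made up 88.7% of the summed level per kilobase under arsenite and 85.8% under water. An antisense transcript on the other strand, Gm45470, covers 24.9% of the Adrb3 exon bases, so reads from there cannot be assigned either.

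Of 20 listed stimulatory receptors, Adrb1 and Adrb3 included, 15 were measured, 12 above 0 and 3 below. They had a median log2 ratio of 0.37 and 0 calls. Restricted to genes whose mean reached 50 in either group, that median was 0.19. Gipr, the receptor for the gut hormone GIP, had low means of 25.8 under arsenite and 10.6 under water (log2 ratio 1.24 at PPEE 0.535, from the authors' deposited table). Tshr, the thyrotropin receptor, had 888 under arsenite and 689 under water (log2 ratio 0.37, from the authors' deposited table). Gpr3, a receptor that signals without a ligand, had 4.11 under arsenite and 8.46 under water (log2 ratio -0.95, from the authors' deposited table).

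Both natriuretic peptide receptors among the members had higher means under arsenite without a call. Npr1 encodes the receptor guanylyl cyclase for atrial and brain natriuretic peptides (chromosome 3, 90450591 to 90465928). Its mean was 451 in arsenite mice and 329 in water mice, and the authors' deposited table put its log2 ratio at 0.45 with PPEE 0.976, the smallest among the 8 members not called. Npr3 encodes the clearance receptor, which takes the same peptides out of circulation and is abundant in rodent fat (chromosome 15, 11839896 to 11907837). Its mean was 5961 in arsenite mice and 4540 in water mice, and the authors' deposited table put its log2 ratio at 0.39 with PPEE 0.9993. Antisense or divergent transcripts on the opposite strand overlap 11.7% of the Npr1 exon bases (Gm16048) and 3.42% of those of Npr3 (Gm5144), with the same limit on assigning reads. Signalling and clearance receptor thus stood in nearly the same proportion: the level of Npr3 per kilobase was 7.75 times that of Npr1 under arsenite and 8.09 times under water. Of the 14 listed natriuretic peptide and cyclic GMP genes 10 were measured, 9 above 0 and 1 below, with a median of 0.42 and 0 calls. Npr2, the receptor for C-type natriuretic peptide, had 492 under arsenite and 351 under water (log2 ratio 0.48 at PPEE 0.363, from the authors' deposited table). Pde9a, a phosphodiesterase specific for cyclic GMP, had 28.0 under arsenite and 16.3 under water, and Prkg2, a cyclic GMP-dependent kinase, had 18.9 under arsenite and 22.4 under water. Several genes of this list are also expressed in blood vessels. Beside it, 11 of 12 endothelial markers lay above 0, with summed levels per kilobase of 2054 under arsenite and 1272 under water, none at 0 and none called. The extremes of that list were Cldn5 (log2 ratio 1.52) and Emcn (-0.10), by the authors' deposited table. Their part in the natriuretic result was not tested.

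**Figure D3:**
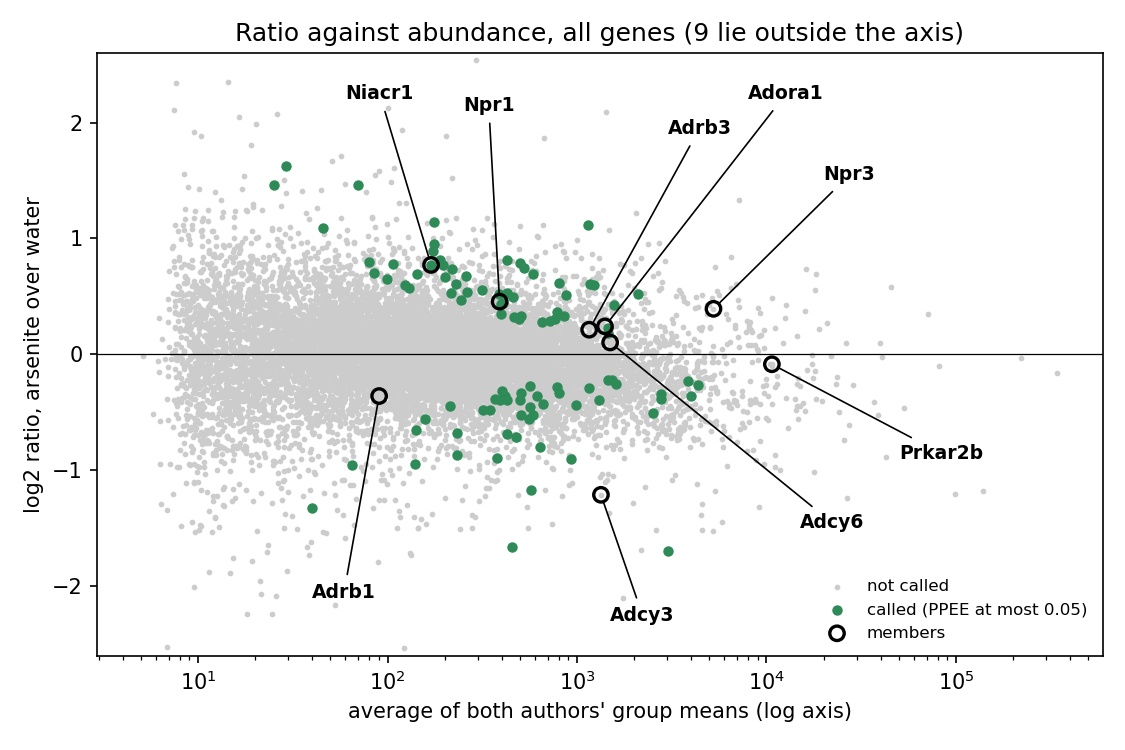
Deposited log2 ratio against the average of both group means (log axis) for all genes, with called genes in green and the 9 members circled; 9 genes lie outside the ratio axis. Niacr1, which was called, sits near the upper edge of the cloud, and Adcy3, which was not, near its lower edge.

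Adcy3 had the widest gap of the 9 genes. It encodes a membrane adenylyl cyclase of adipocytes and olfactory neurons, and in mouse brown fat the cold induces a shortened Adcy3 transcript, which means per gene do not separate. The gene spans 4133116 to 4213525 on chromosome 12. Its mean was 806 in arsenite mice and 1869 in water mice, 2.32-fold lower, and the authors' deposited table put its log2 ratio at -1.21 with PPEE 0.997. It was therefore not called, and the spread between mice behind that value was not analysed here. Of the 13490 genes, 166, Adcy3 included, had an absolute log2 ratio at least as large, 7 of them called. Among the 1857 genes with an average mean within 2-fold of that of Adcy3 there were 11, Adcy3 again included, of which 0 were called. The log2 ratio of Adcy3 ran from -1.23 to -1.05 over the alternative scalings, constants and length correction.

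A neighbour on the opposite strand differed to a similar degree. Cenpo, a centromere protein gene whose exons overlap 22.1% of the Adcy3 exon bases in GENCODE M21, had means of 418 under arsenite and 939 under water, and the authors' deposited table put its log2 ratio at -1.17 with PPEE 0.995. The shared bases make up 19.0% of the Cenpo exon bases. Without a stated strand setting, reads from the overlap cannot be assigned to either gene. Beige adipocyte markers were also low beside Adcy3: all 12 of 12 had log2 ratios below 0, and their summed level per kilobase was 18442 under arsenite and 44130 under water, with none at 0 and none called. The extremes were Prdm16 (log2 ratio -0.10) and Elovl3 (-2.105), by the authors' deposited table. The part of either in the Adcy3 value was not tested.

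Adcy6, a cyclase inhibited by calcium and widely expressed, lay close to even, with a log2 ratio of 0.06 to 0.26 over the alternatives. It spans 98589978 to 98610287 on chromosome 15 and had means of 1549 in arsenite mice and 1443 in water mice, and the authors' deposited table put its log2 ratio at 0.10 with PPEE 0.998. The antisense gene Gm29331 overlaps 8.92% of its exon bases, with the same limit. Among all 10 adenylyl cyclase genes 9 were measured, 4 above 0 and 5 below, with a median of -0.27 and 0 calls. Adcy5, a cyclase also inhibited by calcium and best known from heart and striatum, had means of 904 under arsenite and 417 under water (log2 ratio 1.11 at PPEE 0.859, from the authors' deposited table). Adcy10, the soluble cyclase, had 23.7 under arsenite and 54.0 under water (log2 ratio -1.17, from the authors' deposited table).

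The make-up of the cyclase pool differed between the group means while its sum differed less. Summed over the 9 genes, the level per kilobase was 721 under arsenite and 847 under water. Adcy3 made up 25.5% of that sum under arsenite and 50.2% under water, and Adcy5 24.8% under arsenite and 9.73% under water. Adcy6 made up 35.6% under arsenite and 28.2% under water, the largest share under arsenite, whereas Adcy3 had the largest under water. The level of Adcy3 over that of Adcy6 was 0.716 under arsenite and 1.78 under water. None of these genes was called, and shares of group means carry no error here.

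**Figure D4:**
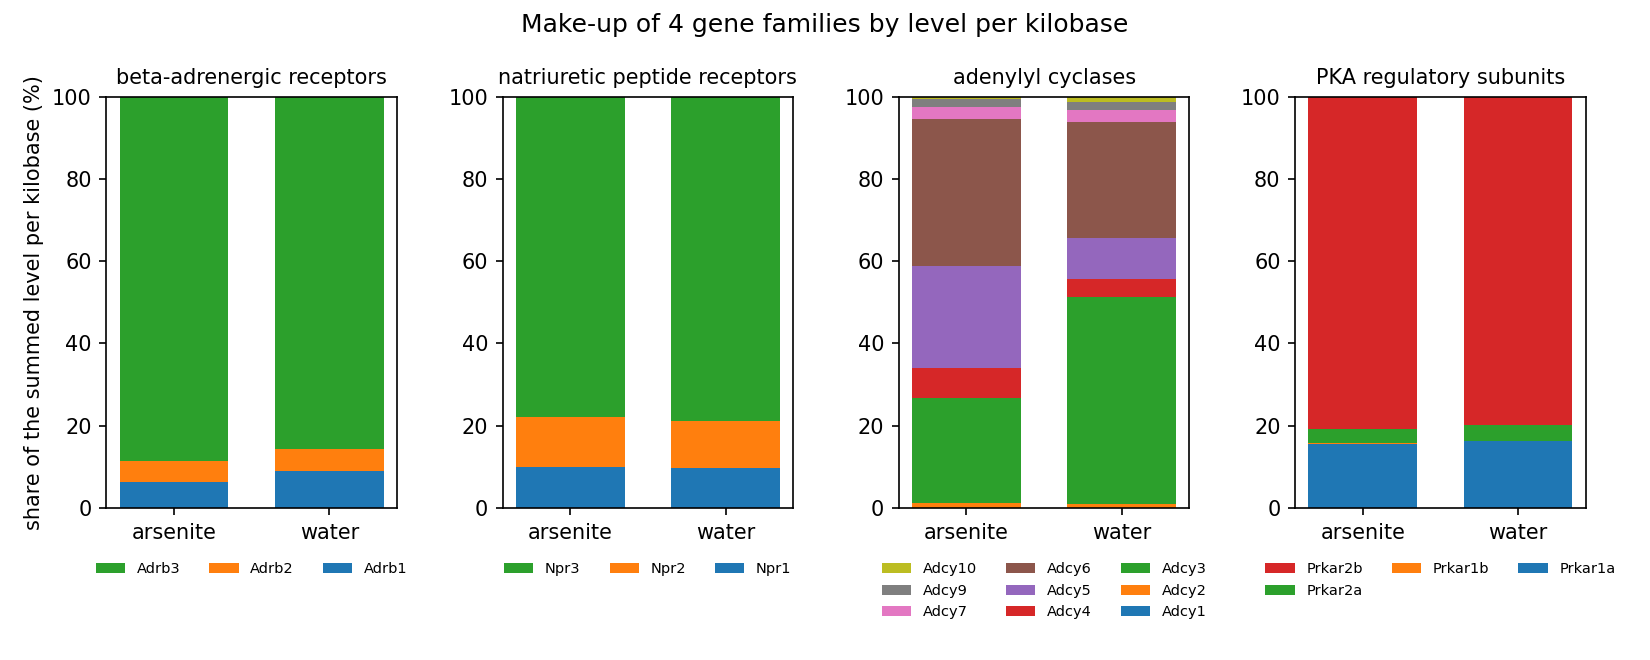
Share of each gene in the summed level per kilobase of its family (%), arsenite left and water right, for beta-adrenergic receptors, natriuretic peptide receptors, adenylyl cyclases and PKA regulatory subunits. The cyclase bars differ most, with Adcy3 at 25.5% under arsenite and 50.2% under water, while Adrb3, Npr3 and Prkar2b hold most of their families in both groups.

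Prkar2b had the highest level per kilobase of the 9 genes and a deposited log2 ratio close to 0. It encodes RII beta, the regulatory subunit through which adipocytes hold protein kinase A inactive until cyclic AMP binds (chromosome 12, 31958450 to 32061648). Its mean was 10360.3 in arsenite mice and 10993 in water mice, and the authors' deposited table put its log2 ratio at -0.09 with PPEE 0.9996. The sign of that ratio is not settled, since it was 0.13 under quantile normalization and 0.07 with both groups scaled to the same sum. Per kilobase its level was 3085 under arsenite and 3274 under water, and it made up 80.8% of the 4 regulatory subunit genes under arsenite and 79.8% under water. Of the 20 listed kinase subunit, inhibitor and anchor genes 19 were measured, 7 above 0 and 12 below, with 0 calls and a median of -0.05, which turned to 0.0049 with upper-quartile scaling and 0.10 with the same sum. Prkaca, the main catalytic subunit, had 1456 under arsenite and 1820 under water (log2 ratio -0.32, from the authors' deposited table). Pkia, a kinase inhibitor, had 955 under arsenite and 1299 under water, and Akap12, an anchoring protein, had 484 under arsenite and 239 under water (log2 ratios -0.44 and 1.01, from the authors' deposited table).

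Ordered by level per kilobase, the 9 genes ran under arsenite from Prkar2b, Npr3, Adrb3, Adora1, Adcy6, Adcy3, Npr1 and Niacr1 to Adrb1. Under water Adcy3 stood between Npr3 and Adrb3, and the other 8 kept their order among themselves. Npr1 and Niacr1 were neighbours in both orders, at 111 and 110.0 under arsenite and at 81.0 and 64.3 under water. Without values per mouse, no neighbours in either order can be said to differ beyond their spread. For the same reason no gene could be matched to the members by its pattern over mice.

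The rest of the pathway held 1 further call. Over the 10 pathway lists, members included, 144 genes were measured, 80 above 0 and 64 below. Of these 2 were called (1.39%, against 0.734% of all genes), Niacr1 and Rapgef3. Since Niacr1 is a member, that share does not describe the genes outside the members, where Rapgef3 was the only call. Rapgef3, the exchange factor EPAC1 through which cyclic AMP activates Rap proteins independently of the kinase, rose to a mean of 246 in arsenite mice, against 144 in water mice, and the authors' deposited table put its log2 ratio at 0.77 with PPEE 0.0405. That call was lost at a PPEE bound of 0.01. Endothelial cells express this gene, and the endothelial markers given above were high beside it; their part was not tested. In the same list of cyclic AMP effectors and responsive genes, 7 of 23 lay above 0 and 16 below, with a median of -0.25 and 1 call. It shares 3 genes, Ucp1, Dio2 and Ppargc1a, with the beige marker list, whose 12 genes all lay below 0 with a median of -1.19 and a summed level per kilobase of 18442 under arsenite and 44130 under water; their part in the list's values was not tested. Nr4a3, an early gene induced by cyclic AMP, had 6.72 under arsenite and 24.0 under water, and Ucp1, the uncoupling protein induced by beta-adrenergic signalling, 15854 under arsenite and 37406 under water (log2 ratios -1.75 and -1.24, from the authors' deposited table). Creb3l1, a membrane-bound CREB relative, had 95.9 under arsenite and 52.2 under water (log2 ratio 0.87, from the authors' deposited table).

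G protein subunits lay close to even, 7 of 16 above 0 and 9 below, with 0 calls. Their median was -0.04 as deposited and above 0 under quantile normalization (0.06), upper-quartile scaling (0.02), same-sum scaling (0.12) and length correction (0.0023). Gnas, which encodes the stimulatory alpha subunit, had means of 8685 under arsenite and 10474 under water (log2 ratio -0.27, from the authors' deposited table). Gnai1, an inhibitory alpha subunit, had 2406 under arsenite and 1661 under water (log2 ratio 0.53 at PPEE 0.989, from the authors' deposited table). Gnao1, another inhibitory type, had 173 under arsenite and 239 under water.

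Phosphodiesterase genes and the listed receptor desensitisation genes lay on both sides of 0. Of 15 measured phosphodiesterases 8 lay above 0 and 7 below (median 0.10, 0 calls). Pde3b, through which insulin opposes lipolysis, had means of 4571 under arsenite and 4250.1 under water and made up 53.7% of the phosphodiesterase level per kilobase under arsenite and 52.7% under water. Pde2a, which is stimulated by cyclic GMP, had 728 under arsenite and 415 under water (log2 ratio 0.81, from the authors' deposited table), and Pde1c had 17.7 under arsenite and 38.3 under water (log2 ratio -1.09, from the authors' deposited table). Of 17 measured receptor desensitisation genes, a list that also holds Rgs genes, 12 lay above 0 and 5 below (median 0.06, 0 calls). Adrbk2, a receptor kinase also called Grk3, had 205 under arsenite and 458 under water (log2 ratio -1.16 at PPEE 0.859, from the authors' deposited table). Rgs4, a regulator that speeds G protein shut-off, had 79.0 under arsenite and 46.9 under water, and the related Rgs5, a pericyte gene, had 366 under arsenite and 247 under water.

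The enzymes and droplet proteins on which these signals act also gave 0 calls, with 8 of 12 above 0 and a median of 0.20. Cidec, a droplet fusion protein, had means of 17994 under arsenite and 13903 under water (log2 ratio 0.37, from the authors' deposited table). Pnpla3, a droplet-bound lipid remodelling enzyme, had 5894 under arsenite and 8889 under water (log2 ratio -0.59, from the authors' deposited table). Fabp4, the fatty acid carrier, had 218556 under arsenite and 223241 under water.

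**Figure D5:**
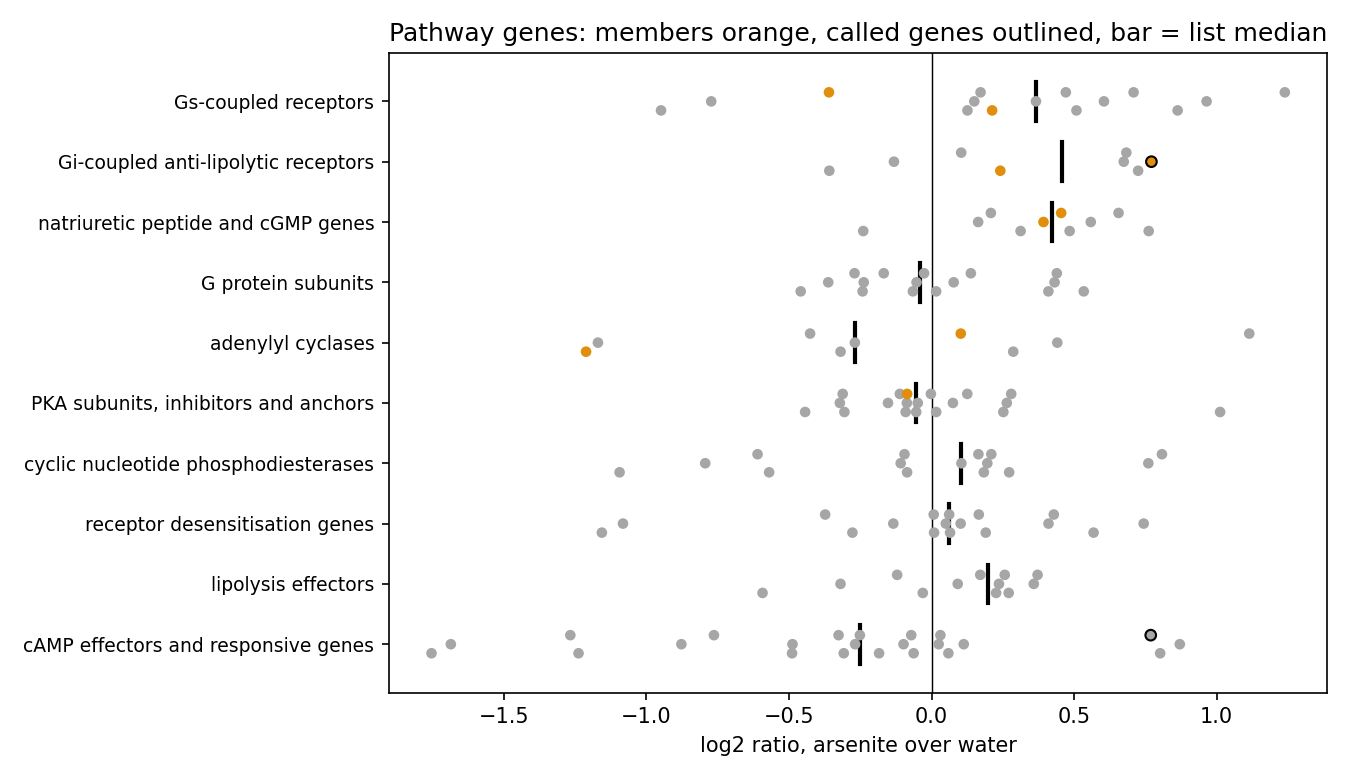
Deposited log2 ratio, arsenite over water, of each measured gene in the 10 pathway lists (members orange, called genes outlined, black bars the list medians). The inhibitory receptor, stimulatory receptor and natriuretic lists have medians of 0.46, 0.37 and 0.42, and the cyclase and cyclic AMP effector lists -0.27 and -0.25.

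The labels state 20M mapped reads per sample, and no total per library was analysed here. All 12 adipocyte markers were measured and had means above 0 in both groups. The measured genes of each other list did too, so this is no check of tissue identity. Skeletal muscle markers were present too, 9 of 10 measured, with summed levels per kilobase of 106093 under arsenite and 139580 under water. Of the sympathetic nerve and glial markers 5 of 10 were measured, and Th and Dbh, which make noradrenaline, were not among them. Of 8 lymphocyte markers 3 were measured and summed to 16.5 under arsenite and 35.0 under water per kilobase. Preadipocyte and fibroblast markers lay above 0 in 7 of 10, summing to 7666 under arsenite and 7205 under water. The highest and lowest log2 ratios, by the authors' deposited table, were 1.16 for Mb and -0.50 for Acta1 in muscle, 0.37 for Sox10 and -0.57 for S100b in nerve and glia, -0.48 for Cd8a and -1.35 for Cd3g in lymphocytes, and 0.76 for Pi16 and -0.40 for Lum in preadipocytes. Of the 305 genes beyond 1 on the log2 scale in either direction 11 were called, which is 3.61% against 0.734% of all genes, and PPEE exceeded 0.9 for 12816 genes, by the authors' deposited table.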

How the data were processed

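RNA from inguinal white adipose tissue of 6 mice was sequenced, and per the labels' protocols reads were aligned to GRCm38 (20M mapped reads each). Bowtie2, HISAT and RSEM appear in the submitters' processing notes, with neither role nor version. Per the file headers, the authors deposited a signal per gene and group, the mean of a count-like abundance, and a log2 ratio of treatment over control. The log2 ratio equals that of the deposited means after 0.574 is added to each, to within 3.62e-08. The deposited PPEE runs from 0 to 1, is named as in the EBSeq method and is not a p-value. No source used here gives the filter on genes or how libraries were scaled. Without values for single mice no SD or test over mice was possible, and precision beyond PPEE is unknown. Levels per kilobase are means divided by the deposited gene length.

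The members, lists and tests were chosen with earlier results of these data known. Named genes are the 9 members and, per pathway list, called genes and the genes outside the 9 with the highest ratio, lowest ratio and highest level per kilobase, and, per marker list, those of highest and lowest ratio; Gpr81, Mybph, Cenpo, Dio2, Ppargc1a, Aqp1, Th and Dbh were added with the table already seen. Of 165 listed pathway entries, 144 different genes were measured. Identifiers matched RefSeq (GRCm38.p6) for 13463 genes, and 22 symbols turned into dates were restored through them. Overlaps and shared stretches of 50 bases used GENCODE M21. Alternatives were other scalings, added constants of 0.1 and 5, removal of the trend on gene length (lowess, span 0.3), a minimum mean of 50 and PPEE bounds of 0.01 and 0.1; a log2 value counted as moved when it turned sign or when the fold it stands for shifted by over 1.5-fold, and a count when it differed by over 1.5-fold. The scalings and the length correction were run on simulated data with a planted length trend and planted changes but no noise. A pass limit was set for upper-quartile scaling and the length correction only. That run does not show that the scalings suit these data. Tools were statsmodels 0.14.6 (lowess), pandas 2.3.3, numpy 2.4.6 and, for figures, matplotlib 3.10.9, under Python 3.11.15.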

Additional observations from a re-analysis of the deposited data

How the results depend on the processing

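Of 122 alternative values, 112 kept their sign with a shift of under 1.5-fold in the fold, arsenite over water, or in the count. Of the 54 values for single members 2 did not, both of Prkar2b. Many of these outcomes were nearly fixed beforehand. Upper-quartile and same-sum scaling shift all ratios by nearly the same amount, 0.059 and 0.16 in the median of all genes. Added constants of 0.1 and 5 moved that median by -5.6e-05 and 0.0019. Shifts of that size could move a value only by turning its sign near 0, so the 112 is no measure of robustness. Small log2 values moved more in proportion: that of Adcy6, which is also the pro-lipolytic median, ran from 0.06 to 0.26 against 0.10 as deposited, and the median of stimulatory receptors was 0.19 at a minimum mean of 50, against 0.37. The 112 include the pro-lipolytic median without Npr3 and Prkar2b, which could not have changed. As deposited, 1 of 9 members was called, as at PPEE bounds of 0.01 and 0.1 and with a minimum mean of 50. The minimum mean could not have changed this count, since Niacr1 had means of 214 under arsenite and 125 under water. Scaling both groups to the same sum moved the median of all genes by 0.16, and each ratio moved with it. The log2 ratio of Prkar2b, -0.09 as deposited, was 0.13 under quantile normalization and 0.072 with the same sum. The median of G protein subunits, -0.04 as deposited, was 0.019 with upper-quartile scaling, 0.058 under quantile normalization, 0.12 with the same sum and 0.0023 with the length trend removed. That of kinase subunits, inhibitors and anchors, -0.05 as deposited, was 0.0049 with upper-quartile scaling and 0.10 with the same sum. At a PPEE bound of 0.01, 63 of the 99 calls over all genes and 1 of the 2 pathway calls were left; at 0.1 there were 119 calls over all genes. The bound alone sets these counts; for the medians the cause was not tested. No paired analysis was possible because the groups share no replicate number and values per mouse were not analysed here, and leaving out each mouse in turn was not run for the same reason. Beyond the stated 20M mapped reads per sample, exact totals per library were not analysed here.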

Other observations

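The gene ontology annotation deposited with the table was also searched for terms naming this signalling, which found only some of the members. Terms naming adenylate cyclase were carried by 39 genes, 4 of them members, of which 20 lay above 0 and 19 below, with a median of 0.10 and 0 calls. Terms naming cAMP were carried by 25 genes, 0 of them members, with 17 above 0 and 8 below, a median of 0.17 and 1 call, the water channel gene Aqp1. Terms naming cyclic nucleotides were carried by 32 genes, 0 of them members, with 20 above 0 and 12 below, a median of 0.08 and the same call. Terms naming adrenergic receptors were carried by 13 genes, 2 of them members, with 7 above 0 and 6 below, a median of 0.06 and 0 calls. Over all genes 0.734% were called. The text of these terms was chosen after the table was seen.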
